A study of Homo sapiens with 15 samples.

Results

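The proteins that build the small nuclear ribonucleoprotein particles (snRNPs) of the major spliceosome were examined through 34 genes in HCT116, a human colon cancer cell line. The genes were listed by name, with the Sm and LSm ring proteins left out, and every intron that carried one of these names in 4 deposited tables of intron junction reads was taken. Introns were listed for 33 of the 34 genes, 541 introns among the 111143 introns of 11713 genes in all. SF3B5 had no listed intron, and U2AF1 had 1, whose reads are uncertain because the gene has a near-identical copy, U2AF1L5.

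The groups were wild-type HCT116 cells (WT) and 4 clones lacking bktRNA1 (genotype bktRNA1-/-), named KO-1 to KO-4. Each group had 3 libraries of polyadenylated RNA from separate experiments, and no treatment was named. Each clone is 1 isolate set against 1 WT line, so that a clone's difference from WT and the loss of bktRNA1 cannot be told apart within a single clone. The labels say no more about bktRNA1, and its own level was not analysed here. The 15 libraries held 17287797 to 35348260 junction reads over the 83066 introns listed in all 4 tables, and the 3 KO-1 libraries were the shallowest at 17287797 to 20454252. Reads on exon-intron boundaries made up 12.3 to 13.7% of them. Of the epithelial genes checked, 6 had introns listed in all 4 tables, and their summed scaled spliced reads were 116099 to 130727 in WT, with CLDN4 lowest at 18 to 69 over all libraries. The fibroblast collagen gene COL1A1 had 135 to 278. In bulk RNA of this kind, fewer cells making a transcript and less of it per cell cannot be told apart.

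As background, an intron is recognised when the U1 snRNP pairs with its 5′ splice site while U2AF binds the tract and AG at its 3′ end. The U2 snRNP, with its SF3A and SF3B complexes, is then placed on the branch point, and the tri-snRNP of U4/U6 and U5 joins before the particle is rearranged for catalysis. A separate minor spliceosome removes a small class of introns with its own U1-like and U2-like particles and shares SF3B and much of the tri-snRNP. Transcripts of splicing factors are themselves spliced, and many carry slowly removed introns or alternative exons that bring a stop codon and nonsense-mediated decay (NMD).

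The splice sites below belong to some of the introns on which the retention results turn, and to some of those most retained in WT. They were read from GENCODE 29 transcripts on hg38, the build of the deposited coordinates, 5′ to 3′ on the transcribed strand. Capitals mark the first and last pair of intron bases. A 5′ site is shown with 3 exon bases before the intron, and a 3′ site with 3 exon bases after it.
SNRNP70 intron 7, 5′ site: actGTgagtacctcc
SNRNP70 intron 7, 3′ site: cctccccctccccacatctgttacAGccg
SNRNP70 alternative exon of 60 nt, 5′ site: atgGTtggtataagg
SNRNP70 alternative exon of 72 nt, 5′ site: aggGTttgtatcatg
SNRNP70 alternative exon of 1474 nt, 5′ site: tcgGTaaatggcacc
SF3B1 intron 4, 5′ site: atgGTaattctttcc
SF3B1 intron 4, 3′ site: tttcctgttgctgttcttttctgcAGgag
U2AF2 intron 9, 5′ site: cagGTgagtccccgg
SF3B3 intron 11, 5′ site: aagGTaagcagcttt
SF3B3 intron 11, 3′ site: accaactcccttcttttctttttcAGatg
SF3B3 alternative exon of 29 nt, 3′ site: accaagcctttttttctcttccacAGgtg
USP39 intron 13, 5′ site: atgGTaaataagaac
USP39 intron 13, 3′ site: gctgttctttgatcatttttttctAGatt
PRPF3 intron 13, 5′ site: gggGTgagtctgaaa
PRPF3 intron 13, 3′ site: gcaaaattattcttctctgtttccAGgcc

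Both ends could be read for 69 member introns, of which 67 ran from GT to AG, 1 from GC to AG and 0 from AT to AC.

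Retention was taken as the length-scaled share of reads on an intron's boundaries among boundary reads and reads spliced across it. In WT the members' introns were mostly removed with little left over. Among the 98 tested introns of the main annotated transcripts the median retention was 1.82%, and 81 of them were under 5%. A further 26 tested introns belonged to other annotated or unannotated forms, where the median was 43.9%. Some of these share a boundary with a main intron, so that its boundary reads count over few spliced reads. The SNRNP70 intron after the 60-nt exon, for example, had 901 retained and 40 spliced reads in WT. Testing needed a mean of 10 retained and 10 spliced reads per library, which 124 introns of 29 genes met in at least 1 clone's comparison and 87 introns of 27 genes met in all 4. No intron of SF3A1, SF3B6, SNRNP27 or U2AF1 met it. The filter favours retained introns: over all listed main-transcript introns of the members the WT median was 0.251%.

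The main-transcript introns retained above 10% in WT lay in 5 genes. USP39, a ubiquitin-protease relative needed for tri-snRNP recruitment, had intron 13 (chr2:85648854-85649016) retained at 89.1% ± 0.764 (SD, n = 3) in WT. PRPF39, a partner of the U1 snRNP in alternative splicing, had intron 8 at 40.9% ± 7.61 and intron 3 at 36.0% ± 7.14. PRPF3, a U4/U6 protein, had intron 13 (chr1:150346137-150346407) at 14.4% ± 3.65 and intron 12 at 12.1% ± 3.37. U2SURP, a U2-associated protein, had intron 13 at 13.8% ± 1.84, and SF3B1, the branch-point-binding subunit of SF3B, had intron 4 at 10.1% ± 2.47. Of these introns, intron 4 of SF3B1 was the one called different from WT in any clone. Annotated exons overlap the named introns of USP39, PRPF39 and SF3B1 and intron 13 of PRPF3, so boundary reads there can come from other forms. Intron 13 of USP39 had 552, 645 and 484 retained and 36, 40 and 27 spliced reads in the WT libraries. The gene's main-transcript introns averaged 395 ± 15 scaled spliced reads in WT.

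Few member introns differed from WT, and those that did were mostly higher. A change is given as a log2 ratio of odds, retained to spliced, tested by a quasi-binomial model with Benjamini-Hochberg adjustment over all tested introns and called at an adjusted p under 0.05. In KO-1, 1 of 91 member introns was higher and 0 were lower, against 1.29% and 0.175% of all 18804 introns tested. In KO-2, 2 of 110 were higher and 0 lower, against 1.3% and 0.304%.

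In KO-3, 0 of 108 were higher and 1 was lower, against 0.558% and 0.155% of all introns tested. In KO-4, 3 of 114 were higher and 1 was lower, against 1.54% and 0.429%. Each share is near that of all introns. Of the 6 introns called in any clone, 4 were overlapped by an exon of an annotated transcript, as were 56 of the 124 tested. These 4, in SNRNP70, SF3B1, U2AF2 and PRPF31, held every higher call. Introns overlapped by such an exon had 1 of 46, 2 of 52, 0 of 52 and 3 of 54 higher in KO-1 to KO-4, and the others 0. This split was not made over all introns. Without the third-listed WT library, 7 introns were higher in KO-2 and 8 in KO-4. Calls over all introns rose as well, to 601 of 23638 higher in KO-2 and 1043 of 24314 in KO-4. These were 307 of 23669 and 374 of 24269 with all libraries. At an unadjusted p under 0.05, the quasi-binomial test had 12 higher and 1 lower in KO-1 (background 8.51% and 2.31%), 22 and 1 in KO-2 (8.23% and 3.62%), 3 and 2 in KO-3 (4.83% and 3.42%) and 17 and 5 in KO-4 (11% and 2.81%). A limma fit on log2 odds made 0 calls among members in any clone, with 8 higher and 1 lower at an unadjusted p under 0.05 in KO-1 (7.59% and 2.23% of all introns), 12 and 0 in KO-2 (6.95% and 3.15%), 3 and 2 in KO-3 (4.51% and 2.84%) and 10 and 2 in KO-4 (8.83% and 2.43%).

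The clone comparisons share their WT libraries, so their values are given side by side and are not independent. The median log2 odds change of the tested member introns was, for KO-1 to KO-4 in order, 0.23, 0.29, 0.10 and 0.23, and 65 of 91, 86 of 110, 67 of 108 and 82 of 114 introns lay above 0. The same medians over all introns were 0.13, 0.10, 0.02 and 0.17. Of all introns tested, 62.0%, 58.5%, 52.3% and 64.7% lay above 0, beside 71.4%, 78.2%, 62.0% and 71.9% of the members' introns. The WT libraries themselves spread widely on this measure: over the 87 introns tested in all 4 clones, their medians relative to the WT mean were 0.09, -0.28 and 0.27. The 3 KO-2 libraries stood at 0.47, 0.48 and 0.12, and the KO-1 libraries at 0.32, 0.23 and 0.20. The KO-3 libraries (0.18, 0.06 and 0.01) and the KO-4 libraries (0.13, 0.27 and 0.15) lay at or below the highest WT library and above the lowest.

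By role, the medians ranged from -0.22 to 0.51. The 3′ splice site and U2 recruitment proteins had the highest KO-2 median, 0.51 over 23 introns, beside 0.23, 0.11 and 0.08 in KO-1, KO-3 and KO-4. The U4/U6 proteins had the highest KO-4 median, 0.42 over 14 introns, beside 0.34, 0.25 and 0.17 in KO-1, KO-2 and KO-3. The SF3B complex had medians of 0.27 and 0.32 in KO-1 and KO-2 but -0.22 over 12 introns in KO-4. Introns of 1 gene share its transcripts, so these medians are descriptions.

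**Figure D1:**
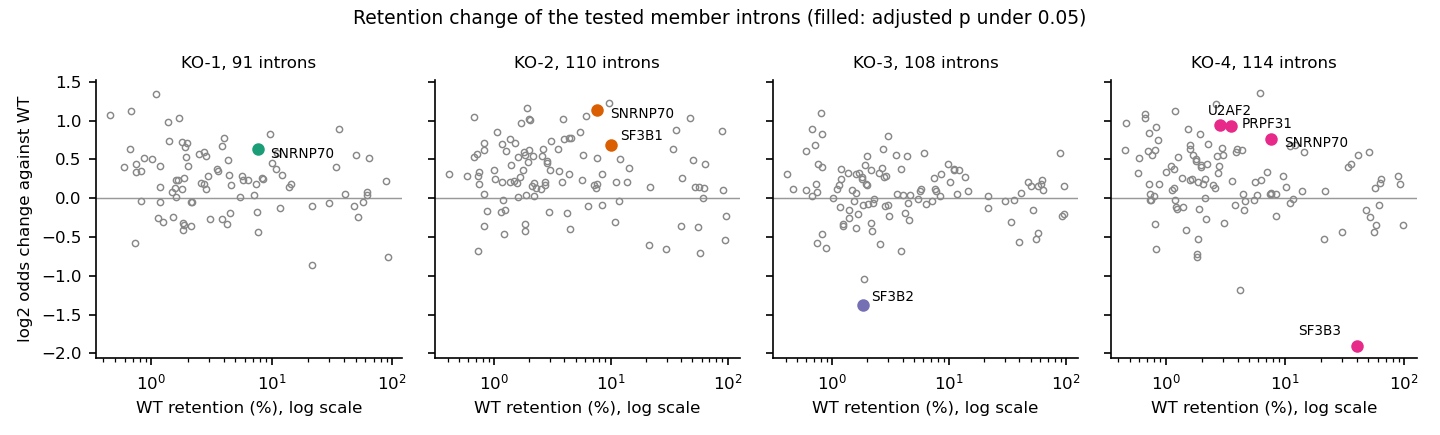
Change in retention of each tested member intron against WT (log2 odds, vertical axis) by its mean WT retention (percent, log scale) in a panel per clone, with called introns filled and named. The points of KO-2 lie mostly above 0 (86 of 110, against 58.5% of all introns tested), and SNRNP70 intron 7 is the highest call there at 1.14.

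Among U1 proteins, SNRNP70 carried the clearest change. It encodes U1-70K, the protein that binds the first stem-loop of U1 RNA and contacts regulatory SR proteins. Its intron 7 of 9 (chr19:49101472-49104633, 3162 nt) was retained at 9.92%, 5.92% and 7.15% in the WT libraries. In KO-2 it was 16.6%, 17.3% and 12.3%, in KO-4 13.6%, 12.3% and 10.3%, and in KO-1 11.2%, 10.7% and 11.4%. In KO-3 it was 10.1%, 6.46% and 7.28%. All libraries of KO-1, KO-2 and KO-4 lay above the highest WT library, whereas KO-3 overlapped WT.

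The log2 odds change of SNRNP70 intron 7 was 1.14 ± 0.13 (SE) in KO-2 (adjusted p = 3.37e-09), 0.77 ± 0.13 in KO-4 (adjusted p = 9.91e-06) and 0.63 ± 0.14 in KO-1 (adjusted p = 0.00725). In KO-3 it was 0.09 ± 0.15 (adjusted p = 0.942). The 4 clones differed from each other at this intron (adjusted p = 1.89e-10). With limma on log2 odds the KO-2 and KO-4 changes did not pass (adjusted p = 0.325 and 0.421). These values rest on 664 retained and 4123 spliced reads over the WT libraries and 1182 and 3325 in KO-2. The KO-1 call was lost when changes were centred on the median of all introns (adjusted p = 0.0732), without the second-listed WT library (adjusted p = 0.119) and without the first-listed (0.0972) or second-listed (0.0780) KO-1 library.

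Intron 7 of SNRNP70 holds an alternative exon with 1 start and lengths of 60, 72 or 1474 nt, in transcripts annotated for NMD. Of the reads spliced from exon 7 either into this exon or across to exon 8, the exon took 8.94%, 6.21% and 6.90% in WT. It took 15.4%, 18.4% and 11.6% in KO-2 and 13.7%, 11.8% and 15.4% in KO-1. Both clones lay above every WT library.

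In KO-4 the alternative exon of SNRNP70 took 12.5%, 12.7% and 8.66%, where the lowest library lay within the WT range, and in KO-3 8.26%, 6.34% and 7.43%, which overlapped WT. Reads leaving the exon by its 60-nt form were 0.921% ± 0.356 (SD, n = 3) of that form and intron 7 together in WT. The clones, KO-1 to KO-4, stood at 2.74% ± 0.414, 2.20% ± 0.325, 1.25% ± 0.266 and 1.54% ± 0.231. These shares are given without a test. Each form shares a boundary with intron 7, so boundary reads counted as retained intron 7 also serve the other forms. The form into the exon, which shares the 5′ end, had 174 retained reads in WT and 95, 207, 149 and 186 in KO-1 to KO-4. The 60-nt form out of it, which shares the 3′ end, had 901 and 756, 1764, 922 and 1531. Intron 7 itself had 664 and 504, 1182, 651 and 1057, all unscaled sums over 3 libraries. Reads spliced into the exon were 320 in WT and 576 in KO-2. Those leaving by its 60-, 72- and 1474-nt forms were 40, 10 and 21 in WT and 73, 11 and 56 in KO-2. How much of the retention difference lies in the exon was not tested.

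**Figure D2:**
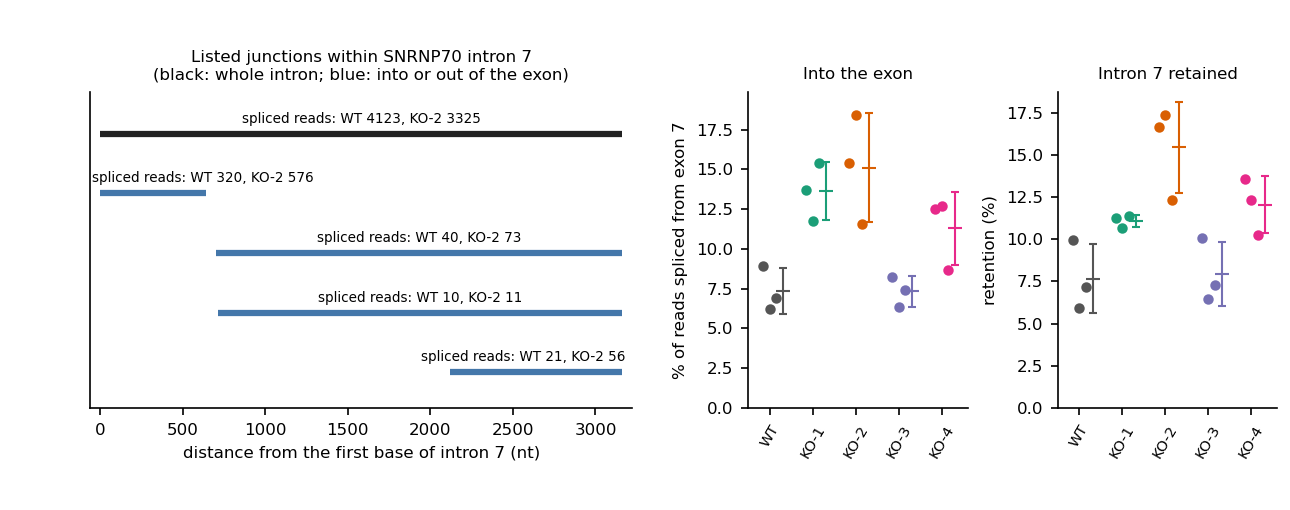
SNRNP70: the listed junctions by distance from the first base of intron 7 (nt), with their spliced reads, and by library the share of reads spliced from exon 7 into the alternative exon and the retention of intron 7 (both percent). Points are libraries and bars mean ± SD; the KO-1 and KO-2 libraries lie above all WT libraries in both measures, and KO-3 overlaps WT in both.

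Among SF3B members, intron 4 of SF3B1 (intron 4 of 24, chr2:197418589-197420427) was higher in KO-2. SF3B1 is the large subunit that clamps the branch point. Its retention was 12.7%, 7.75% and 9.96% in WT and 17.2%, 15.8% and 13.3% in KO-2, a change of 0.69 ± 0.15 (adjusted p = 0.00407) with no overlap. KO-1 stood at 13.3% ± 0.313 (SD, n = 3), also above every WT library, with a change of 0.46 ± 0.16 that missed the threshold (adjusted p = 0.199) and passed it without the first-listed WT library (0.0332).

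KO-3, at 11.5% ± 0.168, and KO-4, at 11.7%, 11.3% and 10.2%, lay within the WT range for this SF3B1 intron. The KO-2 call was lost without the second-listed WT library (adjusted p = 0.115) and without the first-listed KO-2 library (0.0860). The intron spans an alternative exon of 56 nt, into which 18 reads were spliced in WT and 8, 21, 18 and 22 in KO-1 to KO-4. Reads leaving the exon for the next one were 18 in WT and 18, 39, 23 and 21, all unscaled sums over 3 libraries.

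SF3B2, which binds near the branch point within SF3B, had the one called decrease in KO-3. Intron 18 of 21 (chr11:66063543-66063627) was retained at 1.542%, 1.504% and 2.476% in WT and 0.609%, 0.622% and 0.918% in KO-3, without overlap. The change was -1.38 ± 0.37 (adjusted p = 0.0388) and rested on 102 retained reads in WT and 41 in KO-3. It kept its call only without the second-listed WT library (adjusted p = 0.0264), and leaving out any other library gave an adjusted p of 0.0539 to 0.292.

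SF3B3, a scaffold of the SF3B complex, had a decrease in KO-4 in a form outside its main transcript. This intron (chr16:70550679-70554445) follows a 29-nt exon of an NMD transcript and lies inside main intron 11. It was retained at 33.3%, 42.9% and 43.6% in WT and 14.9%, 13.8% and 15.8% in KO-4, a change of -1.90 ± 0.50 (adjusted p = 0.0151) with no overlap. KO-2, at 43.3%, 26.3% and 32.5%, and KO-3, at 37.0%, 21.7% and 35.1%, overlapped WT, and KO-1 was not tested at this intron. Because the form ends where main intron 11 ends, boundary reads of intron 11 can count in it. The form had 103 retained and 79 spliced reads in WT and 30 and 86 in KO-4. Intron 11 had 107 and 1230 in WT and 36 and 941 in KO-4. The high percentages thus set shared boundary reads over few spliced reads.

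The call in SF3B3 was lost without any 1 of the KO-4 libraries (adjusted p = 0.126, 0.0958 and 0.0586). Main intron 11 of SF3B3, which shares its 3′ end, was at 4.21% ± 0.642 in WT and 1.88% in KO-4 (change -1.19, adjusted p = 0.0674).

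U2AF2, the large U2AF subunit that reads the polypyrimidine tract, had intron 9 of 11 (chr19:55668793-55669082) higher in KO-4. Its retention was 2.76%, 2.05% and 3.79% in WT and 5.57%, 5.26% and 4.87% in KO-4. The change was 0.94 ± 0.18 (adjusted p = 2.94e-04), every KO-4 library lay above every WT library, and the call held when any single library was left out. KO-2 stood at 4.18%, 4.22% and 3.18%, overlapping WT. KO-2 was not called with all libraries and was called without the third-listed WT library (adjusted p = 0.0322).

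PRPF31, which links U4/U6 to U5 in the tri-snRNP, had intron 12 of 13 higher in KO-4. It was retained at 3.17%, 2.57% and 4.90% in WT and 6.475%, 6.923% and 5.996% in KO-4, a change of 0.94 ± 0.27 (adjusted p = 0.0385) without overlap. The means of the other clones were 4.40% ± 1.07, 5.41% ± 0.732 and 5.06% ± 0.572 in KO-1 to KO-3. This call held only without the third-listed WT library (adjusted p = 0.0027), and leaving out any other library gave 0.0751 to 0.273, and centring on all introns gave 0.151.

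**Figure D3:**
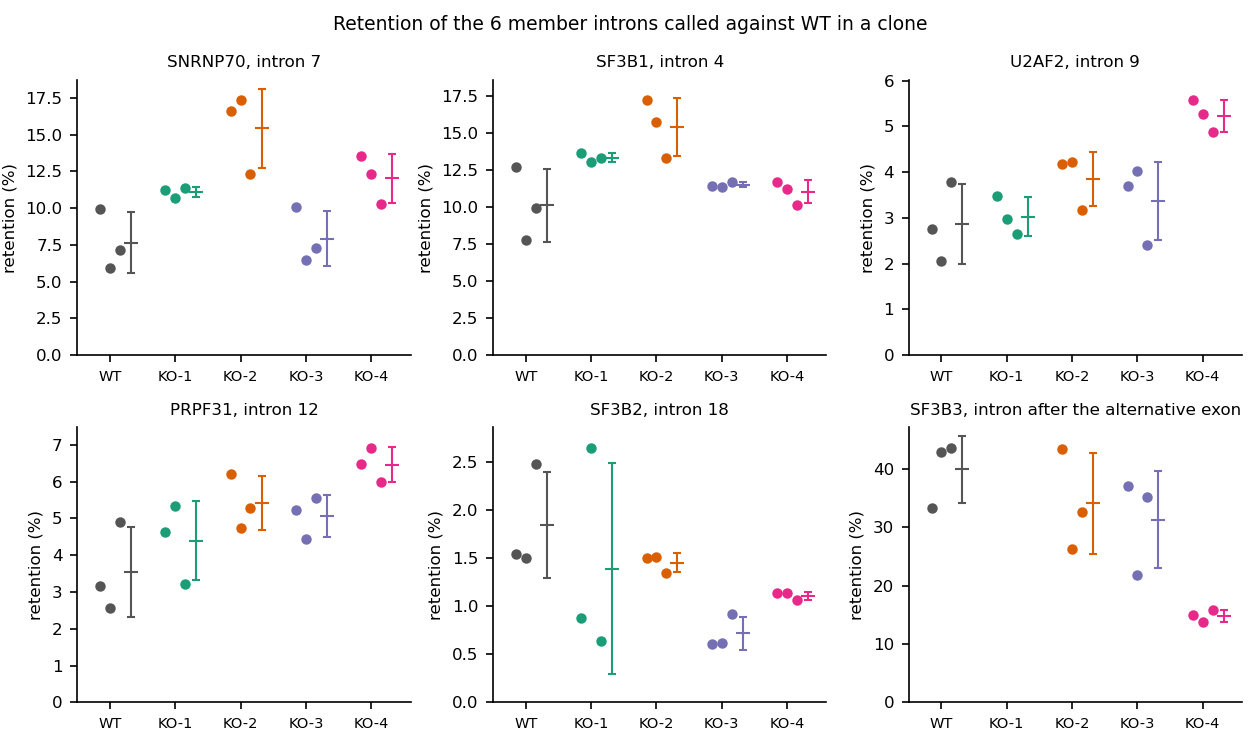
Retention (percent) in each library of the 6 member introns called in at least 1 clone, for WT and KO-1 to KO-4; the SF3B3 form was not tested in KO-1. Points are libraries and bars mean ± SD; SNRNP70 intron 7 is high in KO-1, KO-2 and KO-4, and the SF3B3 form is low in KO-4.

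For the U5 and the remaining tri-snRNP proteins, 0 introns were called in any clone by the quasi-binomial test or by limma. At an unadjusted p under 0.05 by the former, 8.51%, 8.23%, 4.83% and 11% of all introns were higher in KO-1 to KO-4. Of U5 introns, 6 of 28 were higher at that threshold in KO-4, 1 of 22 in KO-3 and 0 in KO-1 and KO-2. Of tri-snRNP introns, 1 of 3 was higher in KO-1 and in KO-2. The nearest was intron 31 of PRPF8, the U5 protein at the heart of the catalytic centre, at 0.83 in KO-4 (adjusted p = 0.0594). Other introns just outside the threshold were intron 5 of PUF60 in KO-2 (change 0.86, adjusted p = 0.0502, 5.47% ± 2.41 in WT and 9.01% ± 0.480 in KO-2) and intron 5 of SF3A3 in KO-2 (1.01, adjusted p = 0.0728). Intron 12 of DDX46 in KO-2 was at 1.02 (adjusted p = 0.0823) and intron 12 of PRPF3 in KO-4 at 0.69 (adjusted p = 0.0940). These were chosen after their values were seen. The most retained intron of USP39 was 89.1% in WT and 93.3% ± 4.18 in KO-2, and that of PRPF3 14.4% in WT and 20.4% ± 5.00 in KO-4 (adjusted p = 0.151).

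Spliced reads summed per gene gave a second measure, the amount of spliced transcript, scaled between libraries by the median ratio. Of the 34 genes, 32 could be tested, and SF3B5 and U2AF1 could not. In WT, reads per main-transcript intron, which puts genes of different intron number on one scale, ran from 1167 ± 39 (SD, n = 3) for U2AF2, 1119 ± 78 for SNRNP70 and 1007 ± 12 for SNRPC down to 198 ± 11 for PRPF3 and 114 ± 4 for PRPF39. U2AF2 and SNRNP70 did not differ beyond their spread, nor did PUF60 (845 ± 43), SF3B6 (822 ± 45), SF3B1 (804 ± 9) and SF3B2 (795 ± 61). Subunits of 1 complex were not level with each other: within SF3B, PHF5A stood at 509 ± 29 and SF3B3 at 442 ± 13.

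Among the members, more were called lower than higher in spliced reads in KO-1, KO-2 and KO-4. In KO-3 the share called higher was near that of all genes. In KO-1, 1 of 32 rose and 7 fell by limma, against 13.7% and 12.5% of all 9471 genes. In KO-2, 1 rose and 17 fell, against 21.9% and 21.1%. In KO-3, 5 rose and 0 fell, against 15% and 15.6%, with 8 and 1 at an unadjusted p under 0.05 (20.5% of all genes in each direction) and 0 lower also with voom weights. In KO-4, 3 rose and 15 fell, against 24.6% and 24.2%.

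The median log2 change of the 32 genes was -0.07, -0.14, 0.00 and -0.10 in KO-1 to KO-4, while the median of all genes was 0.00 in each. The clones share their WT libraries here too. Epithelial genes also differed by clone, in unlike directions. EPCAM had 8678 to 9227 scaled reads in WT, 3970 to 4827 in KO-1 and 4201 to 4883 in KO-2. It had 9545 to 10176 in KO-3 and 5151 to 7502 in KO-4. CLDN7 was likewise below WT in KO-1, KO-2 and KO-4 and above it in KO-3. KRT19 lay above WT (22064 to 23415) in every clone, at 24867 to 29260 in KO-1 and 30323 to 33975 in KO-2. It reached 30407 to 32670 in KO-3 and 39045 to 40132 in KO-4. KRT8 and KRT18 overlapped WT in KO-1, KO-2 and KO-4 and lay above it in KO-3. CLDN4 lay above WT in KO-4 and overlapped it in the other clones. The sum of the 6 genes was 118538 to 127182 in KO-1, 120670 to 128650 in KO-2, 171117 to 179117 in KO-3 and 132287 to 139286 in KO-4. Their part in the members' changes was not tested. The number that rose in KO-1 went to 0, and 4 members fell in KO-3, when libraries were scaled by total spliced reads, which lowers the KO-3 median of all genes by 0.07. With that scaling, 1138 of all 9471 genes rose in KO-1 and 2237 fell in KO-3. The KO-1 count of lower genes was 2 without the second-listed WT library, 4 without the third-listed, and 3 without the second- or third-listed KO-1 library. Over all genes these KO-1 counts were 902, 1013, 921 and 943, against 1182 with all libraries. The KO-2 count of lower members was 11 without the second-listed WT or second-listed KO-2 library. Over all genes it was 1628 and 1738, against 2000. The KO-4 count of higher members was 1 without the first-listed WT library, where all genes gave 2095, against 2326.

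**Figure D4:**
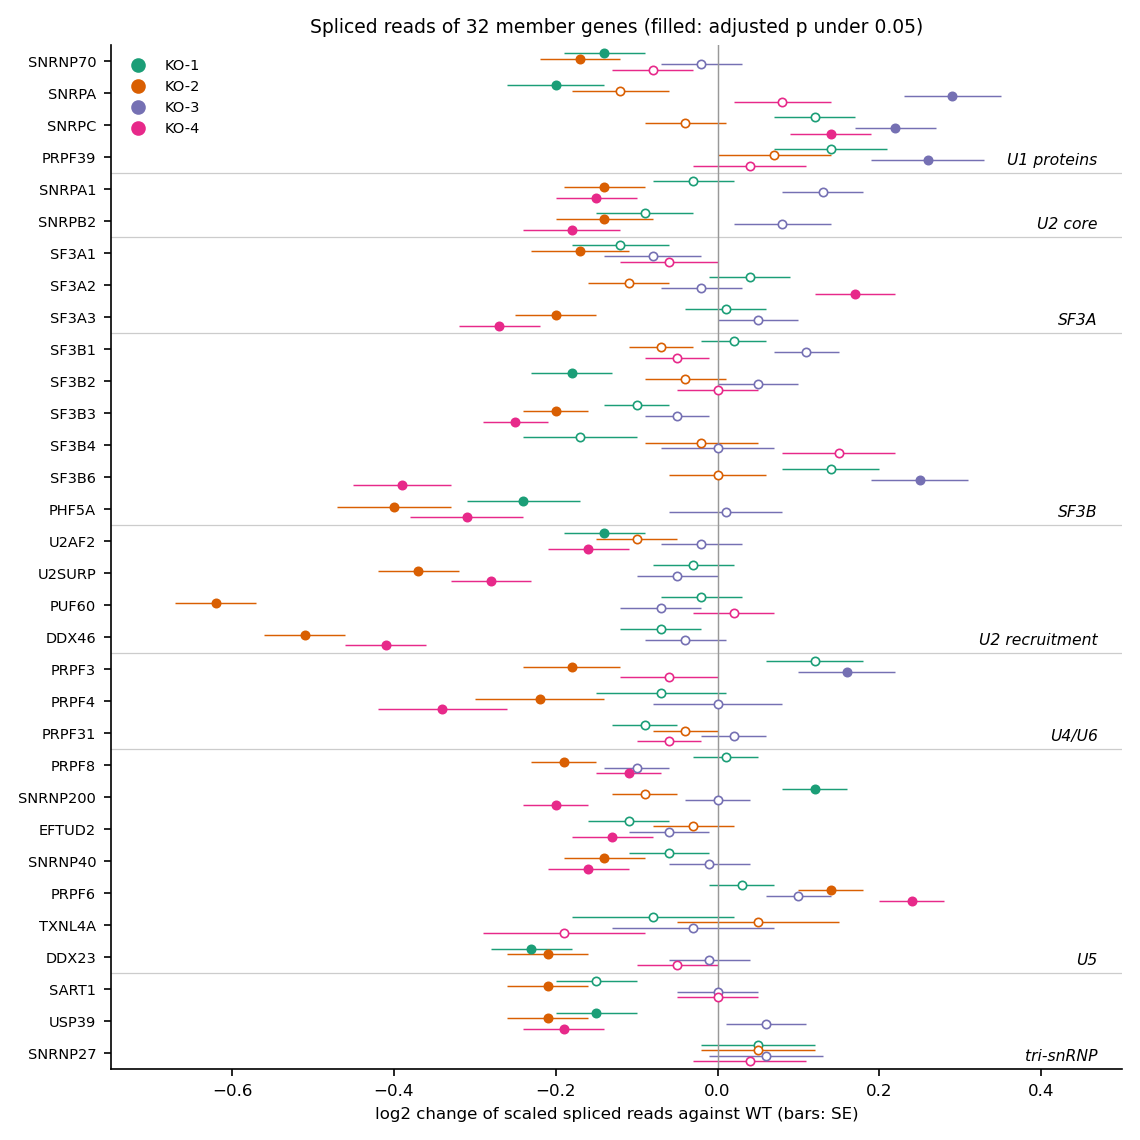
Log2 change in scaled spliced reads against WT (horizontal axis, bars are SE) for each of the 32 tested members by role group, colored by clone, with calls filled. The lowest value is that of PUF60 in KO-2 at -0.62, and DDX46 is low in KO-2 and KO-4.

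The largest decreases lay in the proteins that recruit U2. PUF60, a U2AF-related protein that binds pyrimidine tracts, had 8351, 9102 and 8299 scaled reads in WT and 5702, 5250 and 5822 in KO-2, a change of -0.62 ± 0.05 (adjusted p = 2.68e-09). Its means of 8483 ± 310, 8163 ± 318 and 8682 ± 275 (SD, n = 3) in KO-1, KO-3 and KO-4 did not pass the test. DDX46, the helicase that prepares U2 for branch-point binding, had 5820, 6423 and 5819 reads in WT, 4142, 4275 and 4240 in KO-2 (-0.51 ± 0.05, adjusted p = 7.41e-08) and 4437, 4396 and 4725 in KO-4 (-0.41 ± 0.05, adjusted p = 1.14e-06). Every KO-2 library for both genes, and every KO-4 library for DDX46, lay below all WT libraries.

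U2SURP, an SR-like protein linked to U2, had 7839, 8003 and 7858 reads in WT, 5991, 6098 and 6211 in KO-2 (-0.37, adjusted p = 8.04e-07) and 6566, 6412 and 6609 in KO-4 (-0.28, adjusted p = 3.14e-05), with no overlap. U2AF2 fell in KO-1 (-0.14, adjusted p = 0.0325) and KO-4 (-0.16, adjusted p = 0.00562).

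**Figure D5:**
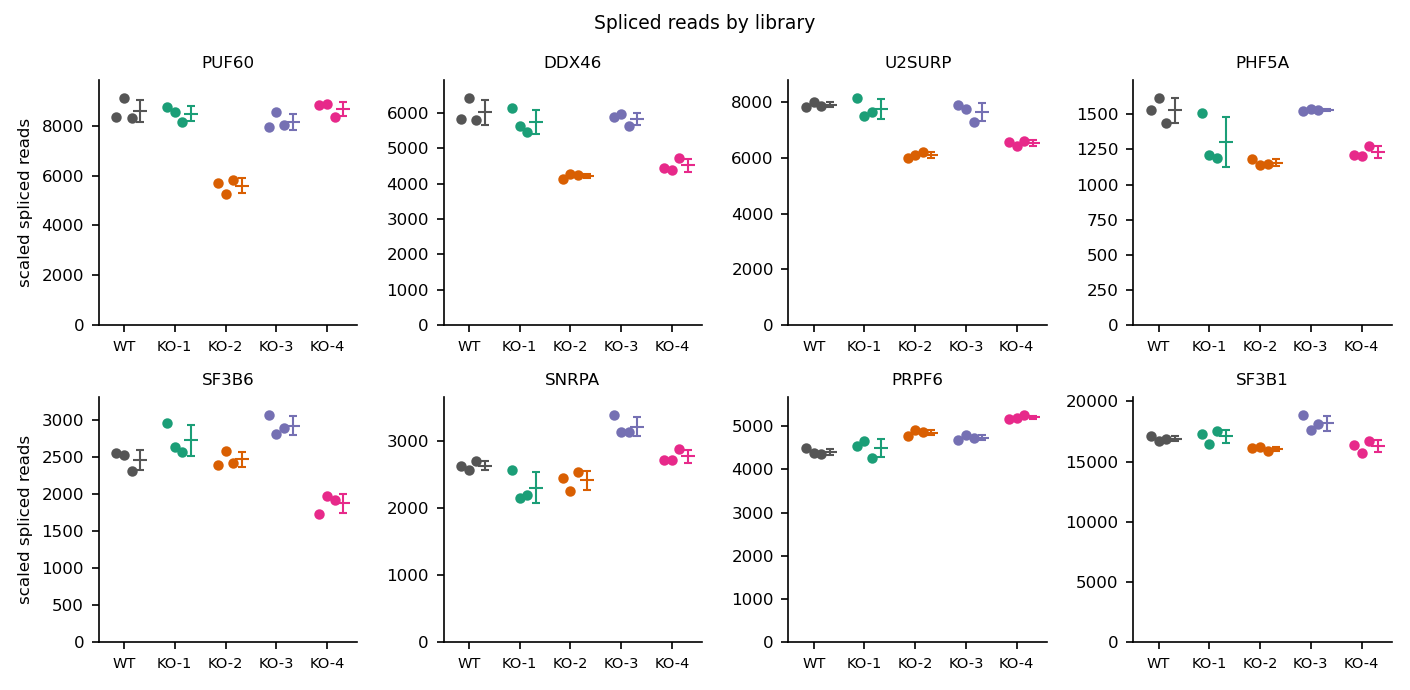
Scaled spliced reads in each library for 8 members, SF3B1 among them without a call, in WT and the clones. Points are libraries and bars mean ± SD; PUF60 lies between 5250 and 5822 in KO-2 and at 7947 or more in the other groups, and DDX46 and U2SURP lie below WT in KO-2 and KO-4.

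Within SF3B and SF3A, PHF5A, the small subunit at the branch-point adenosine pocket, had 1528, 1615 and 1439 reads in WT, 1182, 1139 and 1145 in KO-2 (-0.40, adjusted p = 1.39e-04) and 1210, 1206 and 1278 in KO-4 (-0.31, adjusted p = 0.00148). Its KO-1 values of 1509, 1209 and 1188 overlapped WT, with a change of -0.24 ± 0.07 (adjusted p = 0.0209) that was lost in 4 of 11 alternatives. SF3B6, which contacts the branch region, was higher in KO-3 and lower in KO-4: 2557, 2531 and 2312 in WT, 3068, 2816 and 2899 in KO-3 (0.25 ± 0.06, adjusted p = 0.00577) and 1738, 1983 and 1925 in KO-4 (-0.39, adjusted p = 3.06e-05).

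SF3B3 fell in KO-2 (-0.20, adjusted p = 6.56e-04) and KO-4 (-0.25, adjusted p = 5.52e-05), as did SF3A3, a subunit that joins SF3A to U2 (-0.20, adjusted p = 0.00179, and -0.27, adjusted p = 6.49e-05). SF3A2 rose in KO-4 (0.17, adjusted p = 0.0119). SF3B1 passed in no clone, with changes of 0.02, -0.07, 0.11 and -0.05.

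Of the 4 U1 proteins, 3 rose in KO-3, where 15% of all genes rose. With 4 genes this count is a description only. SNRPA, which binds the second stem-loop of U1 RNA, had 2626, 2570 and 2701 reads in WT and 3385, 3136 and 3134 in KO-3 (0.29 ± 0.06, adjusted p = 0.00164). SNRPC, which stabilises U1 on the 5′ splice site, rose in KO-3 (0.22, adjusted p = 0.00259) and in KO-4 (0.14, adjusted p = 0.0276). PRPF39 rose in KO-3, from 1489 ± 63 to 1784 ± 38 (0.26 ± 0.07, adjusted p = 0.00486).

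SNRNP70 fell in KO-1 (-0.14, adjusted p = 0.0478) and KO-2 (-0.17, adjusted p = 0.0103), and was -0.02 in KO-3 and -0.08 in KO-4. SNRPA fell in KO-1 (-0.20, adjusted p = 0.0273). Among U2 core proteins, SNRPA1 fell in KO-2 (-0.14, adjusted p = 0.0274) and KO-4 (-0.15, adjusted p = 0.0192), and SNRPB2 in KO-2 (-0.14, adjusted p = 0.0430) and KO-4 (-0.18, adjusted p = 0.00899).

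In the tri-snRNP, PRPF6, the U5 bridge protein, rose in KO-2 (0.14, adjusted p = 0.0138) and KO-4, from 4485, 4377 and 4352 reads in WT to 5176, 5185 and 5250 in KO-4 (0.24 ± 0.04, adjusted p = 1.17e-04). PRPF4, a U4/U6 protein, fell in KO-4 (-0.34 ± 0.08, adjusted p = 9.99e-04) and in KO-2 (-0.22, adjusted p = 0.0270). PRPF8, the member with the most spliced reads in WT (24065 ± 111), fell in KO-2 (-0.19, adjusted p = 6.60e-04) and in KO-4 (-0.11, adjusted p = 0.0357).

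SNRNP200, the helicase that unwinds U4 from U6, rose in KO-1 (0.12, adjusted p = 0.0372) and fell in KO-4 (-0.20, adjusted p = 4.53e-04). DDX23, the helicase that frees the 5′ splice site from U1, fell in KO-1 (-0.23, adjusted p = 0.00136) and KO-2 (-0.21, adjusted p = 0.00140). USP39 fell in KO-1, KO-2 and KO-4 (-0.15, -0.21 and -0.19, adjusted p = 0.0190, 7.03e-04 and 0.00183). SART1, a tri-snRNP protein, fell in KO-2 (-0.21, adjusted p = 0.00286). PRPF31, SF3B4, TXNL4A and SNRNP27 passed in no clone, nor did SF3B1.

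The other called members had small changes. EFTUD2, the U5 GTPase, fell in KO-4 (-0.13, adjusted p = 0.0483), and SNRNP40, a U5 protein, fell in KO-2 (-0.14, adjusted p = 0.0294) and KO-4 (-0.16, adjusted p = 0.0121). SF3A1 fell in KO-2 (-0.17, adjusted p = 0.0254) and SF3B2 in KO-1 (-0.18, adjusted p = 0.0146). PRPF3 fell in KO-2 (-0.18, adjusted p = 0.0109) and rose in KO-3 (0.16, adjusted p = 0.0300).

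Many of the smaller changes in spliced reads depended on single libraries. In KO-4, the PRPF8 and EFTUD2 calls were each lost in 8 of 11 alternatives, among them without the second-listed WT library (adjusted p = 0.0841 and 0.185) or the first-listed KO-4 library (0.126 and 0.146). The SNRPC call in KO-4 was lost in 5, with 0.0705 without the first-listed WT library as the largest adjusted p. In KO-4 the calls of SNRPA1 (0.140 without the second-listed WT library), SF3A2 (0.0715 without the first-listed WT library), SNRPB2 (0.0513 without the second-listed KO-4 library) and SNRNP40 (0.0506 without the first-listed KO-4 library) were lost in 1 or 2.

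In KO-1 every call but that of DDX23 was lost in at least 2 alternatives. Without the second-listed WT library the adjusted p was 0.232 for SNRNP70, 0.132 for U2AF2, 0.123 for SF3B2 and 0.106 for USP39. Without the second-listed KO-1 library it was 0.159 for SNRNP200 and 0.143 for SNRPA, and without the third-listed 0.122 for PHF5A.

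In KO-2, leaving out the second-listed WT library gave 0.201 for PRPF4, 0.177 for SNRPA1, 0.143 for SF3A1 and 0.0759 for SNRNP70, while SNRPB2 was at 0.126 without the second-listed KO-2 library, SNRNP40 at 0.0969 without the third-listed and PRPF3 at 0.0691 without the third-listed WT library. In KO-3 the PRPF3 call was lost in 6 alternatives, up to 0.259 with total-count scaling. The remaining 27 of 49 calls were kept in all 11 alternatives, PUF60, DDX46 and U2SURP in KO-2 among them.

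Retention and spliced reads of the same gene were not always called together. SNRNP70 intron 7 was called higher in KO-4, where its spliced reads did not pass the test. PUF60 and DDX46, with the largest decreases in spliced reads, had no called intron. Even so, PUF60 intron 5 and DDX46 intron 12 lay just outside the threshold in KO-2. The tested introns of U2SURP, PUF60 and DDX46 together had a KO-2 median change of 0.77, with 12 of 13 above 0. Their medians were 0.24, 0.31 and 0.02 in KO-1, KO-3 and KO-4. Spliced reads enter both measures, so the measures are not independent. Spliced reads of PRPF31 did not pass in KO-4, where its intron 12 was called. No test compared the measures.

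Other spliceosome proteins gave a wider view of the pathway. Of 30 activation and catalytic-step factors, 1 rose and 3 fell in spliced reads in KO-1, 1 and 8 in KO-2, 7 and 1 in KO-3 and 1 and 9 in KO-4. All genes gave 13.7% and 12.5%, 21.9% and 21.1%, 15% and 15.6%, and 24.6% and 24.2% higher and lower in KO-1 to KO-4. The step factors' shares were 3.33% and 10%, 3.33% and 26.7%, 23.3% and 3.33%, and 3.33% and 30%. In KO-2 and KO-4 their lower shares lay near those of all genes. Their higher shares there lay below, as did the members' 3.1% and 9.4%. Of 12 minor-spliceosome proteins, 3 rose and 0 fell in KO-1, 1 and 1 in KO-2, 3 and 1 in KO-3 and 4 and 1 in KO-4. For retention, step factors had 0 of 73, 1 of 83, 0 of 78 and 0 of 84 introns called, the 1 called being higher, in KO-1 to KO-4, with 6 and 0, 9 and 1, 3 and 2, and 3 and 4 higher and lower at an unadjusted p under 0.05; all introns at that threshold gave 8.51% and 2.31%, 8.23% and 3.62%, 4.83% and 3.42%, and 11% and 2.81%. Minor-spliceosome genes had 2 of 14, 2 of 21, 1 of 17 and 3 of 18 called, 1 of the last 3 lower, where 1.29%, 1.3%, 0.558% and 1.54% of all introns were higher and 0.429% lower in KO-4. The higher shares of these minor-spliceosome introns were 14.3%, 9.52%, 5.88% and 11.1% in KO-1 to KO-4. Each rests on 1 or 2 calls. Between clones, 8 of 87 member introns differed in retention, against 7.06% of all introns tested, and 27 of 32 members differed in spliced reads, against 75.7% of all genes. The lists were chosen with earlier results of these data known.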

How the data were processed

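The authors deposited, for each clone against WT, a table of junction counts per intron, with retained reads, spliced reads and the effective lengths of both forms as lists of 3 values per group, together with p-values, a false discovery rate and a difference score. The submitters' processing notes name cutadapt 2.0, STAR 2.7.1a and the build hg38. The tool that counted junctions and made the deposited p-values is not given in the sources used here. These tables list 90007, 100612, 97525 and 101710 introns, all with at least 20 junction reads per library, and 99.6% match GENCODE 29. Because no replicate number accompanies the listed values, a library is called by its place in the list, and p-values measure the spread between these libraries.

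Percent retention was 100 times retained reads per length over retained plus spliced reads per length. Introns averaging 10 or more reads of each kind per library were tested with a quasi-binomial model with the dispersion moderated by limma 3.58.1 (R 4.3.3). Spliced reads of introns listed in all 4 tables were summed per gene, median-ratio scaled, and compared by limma on log2(value + 0.5), which lowers the change of rare transcripts, in genes with a mean of at least 50. Because deposited cells hold lists rather than single counts, the planned edgeR test was not run and this limma fit, planned as an alternative, took its place. Calls used a Benjamini-Hochberg adjusted p under 0.05. Tests were run on simulated data. The 34 members and the lists were chosen with earlier results of these data known. Named introns were those called in at least 1 clone and the most retained of each role group; named genes were the 20 called members with the largest changes and the most abundant of each role group. SF3A1, SF3A2, EFTUD2 and SNRNP40 lay outside the rule and were added after their values were seen. Alternatives varied the test, the filter, the scaling, the introns summed, the samples and each library left out.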

Additional observations from a re-analysis of the deposited data

Results flagged for a closer look

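At 8 of 87 member introns the 4 clones differed from each other by more than their libraries' spread, against 7.06% of all 18064 introns tested. They were SNRNP70 intron 7 (adjusted p = 1.89e-10), U2AF2 intron 9 (0.00116), PUF60 intron 5 (0.00166), SF3B1 intron 4 (0.00634), U2AF2 intron 5 (0.00757), SF3B1 intron 14 (0.00889), PUF60 intron 4 (0.0311) and SF3A3 intron 5 (0.0318). At U2AF2 intron 5, KO-4 stood at 2.72% ± 0.565 (SD, n = 3) and KO-1 at 1.24% ± 0.265. At SF3B1 intron 14, KO-2 stood at 2.65% and KO-4 at 1.10%. At PUF60 intron 4, KO-2 was at 4.72% ± 0.361, and at SF3A3 intron 5, at 4.03% ± 0.367. For spliced reads, 27 of 32 members differed among clones, against 75.7% of all genes. None of the causes was tested.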

How the results depend on the processing

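No paired analysis was possible because the lists of values carry no replicate numbers, and the planned DESeq2 fit was not run. With limma on log2 odds, calls were 0 higher in KO-1, KO-2 and KO-4 and 0 lower in KO-3 and KO-4. Centred on all introns, KO-1 had 0 higher and KO-4 2 lower. With a mean of 50 reads, KO-3 and KO-4 had 0 lower and 5 introns differed among clones. By the authors' deposited FDR, 1 was lower in KO-1, 7 higher in KO-2, and 7 higher and 2 lower in KO-4. Over all introns that FDR gave 90 lower in KO-1, 600 higher in KO-2, and 786 higher and 159 lower in KO-4. Leaving out single libraries gave 0 to 2 higher in KO-1, 1 to 7 in KO-2, 2 to 8 in KO-4, 0 to 1 lower in KO-3 and KO-4, and 4 to 6 among clones. Among clones, all 18064 introns then gave 523 to 764 calls, against 1276 with all libraries. The KO-2 count was 7 and the KO-4 count 8 without the third-listed WT library, where all introns gave 601 and 1043 higher. For spliced reads, total-count scaling left 0 higher in KO-1 and 4 lower in KO-3, and the clone and WT alone left KO-1 with 0 higher and 2 lower. Over all genes, total-count scaling gave 1138 higher in KO-1 and 2237 lower in KO-3 of 9471. KO-1 and WT alone gave 1053 higher and 951 lower of 9373. Leaving out single libraries gave 0 to 1 higher and 2 to 7 lower in KO-1, 11 to 16 lower in KO-2, 4 to 5 higher in KO-3, and 1 to 3 higher and 11 to 15 lower in KO-4. Over all genes the lower counts were then 902 to 1117 in KO-1, 1628 to 1844 in KO-2 and 1919 to 2175 in KO-4. With all libraries they were 1182, 2000 and 2290. Of 49 calls in spliced reads, 27 held under all 11 alternatives run and 22 were lost in at least 1, among them all KO-1 calls except DDX23. Named introns kept their side of the threshold in 212 of the alternative values, 28 no longer passed and 2 newly passed; for the 32 genes these were 1302, 88 and 18. The sign changed in 6 values of introns and 30 of genes, 0 of them called. The causes were not tested. Depth limits retention: SF3B2 intron 18 rested on 102 and 41 retained reads.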
